A study of Homo sapiens with 8 samples.

Results

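The comparison described here is the effect of an XBP1 hairpin that 2 breast cancer cell lines had in common. It set 4 arrays of cells carrying a hairpin against XBP1 (shXBP1) against 4 arrays of cells carrying a control hairpin (shCtrl), which are all 8 arrays of the series. The members were chosen by design: a model with the cell line as a block gave 1 average change per gene, and both lines' own changes were required to have its sign. T47D is a luminal, oestrogen receptor-positive line, and MDA-MB-231 is a triple-negative line with mesenchymal features. The 4 groups were T47D shCtrl, T47D shXBP1, MDA-MB-231 shCtrl and MDA-MB-231 shXBP1, with 2 biological replicates each. Every group had been infected with a lentivirus and held for 24 h at 0.1% O2 in glucose-free medium, so all values come from stressed cells. Unstressed cells, which the design also names, were not analysed here. The labels name 1 XBP1 hairpin without its sequence, so loss of XBP1 and any other effect of that hairpin cannot be told apart.

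XBP1 acts as a transcription factor in the unfolded protein response, the program by which cells match the folding capacity of the endoplasmic reticulum (ER) to its load. The ER sensor IRE1, encoded by ERN1, splices XBP1 mRNA so that it encodes the active factor. The sensor PERK, encoded by EIF2AK3, slows translation and raises ATF4, and ATF6 is another sensor that is itself cut to release a transcription factor. Spliced XBP1 is known to induce ER chaperones, degradation factors and lipid synthesis, and in triple-negative breast cancer it has been linked to the hypoxia factor HIF1A. The arrays read total XBP1 mRNA and do not tell the spliced form from the unspliced one.

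Promoter letters known to bind XBP1 or ATF6 are shown first, since the genes that carry them come back below. The ER stress response element ERSE was searched as CCAAT, any 9 bases, CCACG, ERSE-II as ATTGGNCCACG and the unfolded protein response element UPRE as TGACGTGG. Each was searched on both strands in the 250 bases before the start of 15384 measured genes, from RefSeq on GRCh38.p14. The windows below run 5′ to 3′ on the gene's strand, with the match in capitals.
HSPA5: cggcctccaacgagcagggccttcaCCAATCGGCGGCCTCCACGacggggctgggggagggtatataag
CRELD2: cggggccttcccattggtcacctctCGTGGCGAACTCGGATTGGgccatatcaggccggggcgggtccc
XBP1: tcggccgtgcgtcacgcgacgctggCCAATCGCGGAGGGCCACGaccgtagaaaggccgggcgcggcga
SDF2L1: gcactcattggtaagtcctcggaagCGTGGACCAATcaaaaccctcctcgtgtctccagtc
HERPUD1: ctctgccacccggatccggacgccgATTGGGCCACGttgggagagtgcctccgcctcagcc
DNAJC10: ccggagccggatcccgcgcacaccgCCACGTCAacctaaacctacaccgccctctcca
The ERSE window of HSPA5 is chr9:125241366-125241434 on the minus strand, that of CRELD2 is chr22:49918529-49918597 on the plus strand and that of XBP1 is chr22:28800578-28800646 on the minus strand. The ERSE-II window of SDF2L1 is chr22:21642089-21642149 and that of HERPUD1 is chr16:56932000-56932060, both on the plus strand. The UPRE window of DNAJC10 is chr2:182716107-182716164 on the plus strand. All 6 windows lie upstream of the gene start used, in promoter sequence.

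The lines matched their labels. All 17 luminal markers measured, such as ESR1, KRT8 and GATA3, were higher in T47D, and 15 of 16 mesenchymal markers, such as VIM and AXL, were higher in MDA-MB-231. ESR1 read 10.24 to 10.67 on the log2 intensity scale on the T47D arrays and 4.82 to 5.09 on the MDA-MB-231 arrays, and VIM read 6.30 to 6.88 and 14.3 to 14.67. The 11 leukocyte markers averaged 5.27 to 5.42 on every array, below the median of all probe sets (5.96), and the 13 fibroblast markers 5.69 to 6.57. Neither list held a called gene, and at an unadjusted p under 0.05 the leukocyte list had 1 gene higher and 1 lower in limma, and the fibroblast list had none. Replicate arrays correlated at 0.9957 to 0.9977, and the difference between the 3′ and 5′ probe sets of ACTB, a sign of RNA integrity, was 0.893 to 1.302. Both MDA-MB-231 shXBP1 arrays (0.893 and 1.104) lay below both shCtrl arrays (1.302 and 1.209) for ACTB, while the T47D groups overlapped, and the part of this in the results was not tested.

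XBP1 fell in both lines. Its brightest probe set read 12.41 and 12.56 on the T47D shCtrl arrays and 7.52 and 7.16 on the T47D shXBP1 arrays. In MDA-MB-231 it read 10.83 and 10.69 with shCtrl and 7.13 and 6.69 with shXBP1. All 4 shXBP1 arrays lay below all 4 shCtrl arrays. The average change was -4.50 on the log2 scale (SE 0.26, limma adjusted p = 0.00042), with -5.15 in T47D and -3.85 in MDA-MB-231. A second, dim probe set of XBP1 (mean 5.92) had a change of -0.02 (adjusted p = 0.945), and the mean over both probe sets changed by -2.261 (adjusted p = 0.000831). In bulk RNA, less RNA per cell and fewer cells holding it cannot be told apart.

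Of 19775 genes, 1690 (8.55%) had an average change with an adjusted p under 0.05 and are called here. They comprised 1022 genes that rose (5.17%) and 668 that fell (3.38%). The median size of a called change was 0.61, while the median change of all genes was 0.008. Average rises of 2-fold or more numbered 156 and such falls 70, and in 53 and 28 genes the change reached 2-fold within each line. All 1690 had 1 sign in both lines, which the test itself brings about, because a gene that moves in opposite directions leaves a large residual in an additive fit. For 1685 of them the pair of shXBP1 arrays lay wholly above or wholly below the shCtrl pair within each line, against 20.6% of all genes with such a separation in 1 direction. This too is largely brought about by the call, which was made on the same arrays, so it adds no support. The call count was lower without any single T47D array: 800 and 897 genes without shCtrl replicates 1 and 2, and 802 and 760 without shXBP1 replicates 1 and 2. Of 24 genes given below with little more than their change, to complete a short count, 22 did not pass without at least 1 of the 8 arrays, and 14 of them without any of the 4 T47D arrays in turn. DNAJC1 and PIK3C3 were the 2 that passed throughout.

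**Figure D1:**
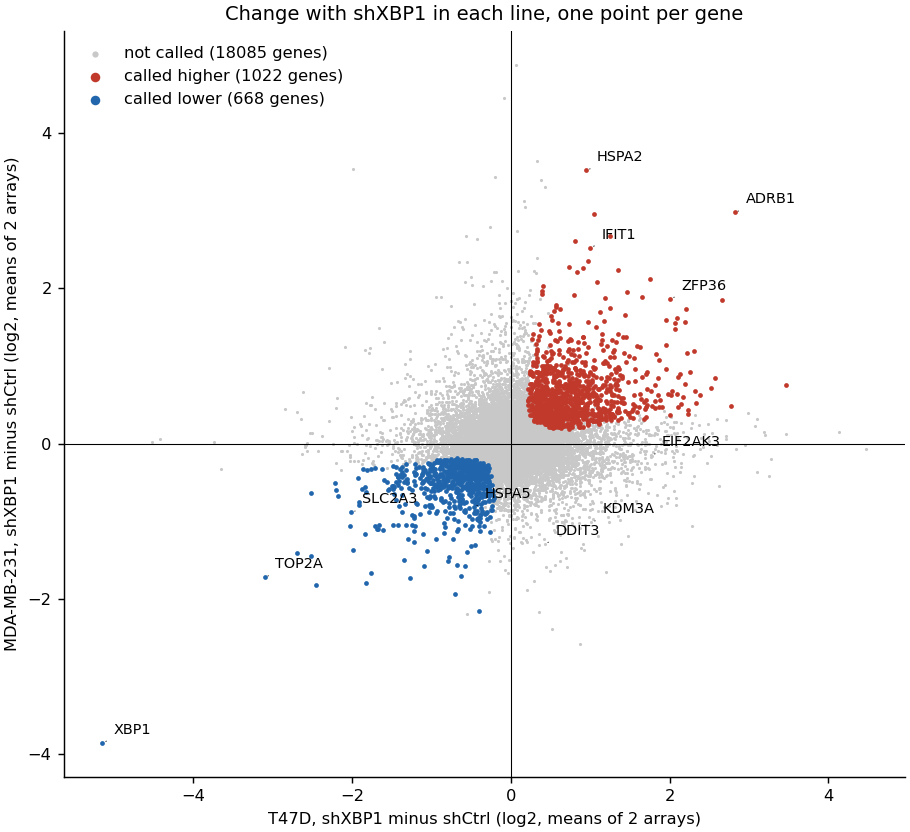
Change with shXBP1 in T47D (x axis) and in MDA-MB-231 (y axis), both in log2 units as differences of means of 2 arrays, with 1 point per gene. The 1022 genes called higher lie in the upper right and the 668 called lower in the lower left, while XBP1 stands apart at -5.15 and -3.85.

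The common effect was a part of each line's response. Over all genes, 27.0% were higher in both lines, 24.3% were lower in both and 48.7% had opposite signs, and the changes of the lines correlated across genes at r = 0.10 (rho = 0.06), where genes are not independent replicates. Tested alone, 29.1% of genes were called in T47D and 17.2% in MDA-MB-231. Both tests called 1713 genes, of which 1038 (5.25% of all) had the same sign and 675 opposite signs. The average effect called 1036 of those 1038 genes (99.8%), which made up 61.3% of its own calls. The difference between the lines passed for 24.8% of all genes and for 477 of the 1690 called genes. Of these 477, 358 changed more in T47D and 119 changed more in MDA-MB-231. For the other 1213 the test did not show a difference in size, which does not show that the sizes are equal.

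The ER chaperones and folding enzymes fell as a minority of their list. Of 34 measured, 8 fell, 1 rose and 25 did not pass (26.5% called, against 8.55% of all genes), with a median change of -0.07. HSPA5, which encodes BiP, the main Hsp70 chaperone of the ER, read 14.64 and 14.77 with shCtrl and 14.24 and 14.23 with shXBP1 in T47D. In MDA-MB-231 HSPA5 went from 14.53 on both shCtrl arrays to 13.8 and 13.63. Its average change was -0.64 (SE 0.10, adjusted p = 0.00795), or 1.56-fold lower. A dimmer HSPA5 probe set gave -1.22 and did not pass (adjusted p = 0.0594), with -2.09 in T47D and -0.35 in MDA-MB-231.

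SDF2L1, a partner of BiP, read 10.63 and 10.73 against 9.73 and 9.75 in T47D, and 11.43 and 11.49 against 10.62 and 10.51 in MDA-MB-231. Its changes were -0.95 and -0.90 (average -0.92, SE 0.08, adjusted p = 0.000879), and the difference of 0.05 between the lines (SE 0.13, adjusted p = 0.831) was smaller than its error. DNAJB9, a BiP co-chaperone also known as ERdj4, fell by 0.66 (SE 0.11, adjusted p = 0.00888), with changes of -0.46 in T47D and -0.87 in MDA-MB-231, and its other 2 probe sets gave -0.66 and -0.54. SERPINH1, the collagen chaperone HSP47, fell by 0.65 (SE 0.07, adjusted p = 0.00256), from 10.09 and 10.14 to 9.46 and 9.41 in T47D and from 11.31 and 11.34 to 10.77 and 10.65 in MDA-MB-231. The groups of SERPINH1 did not overlap within either line, as for 1685 of the 1690 called genes, so this adds no support.

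DNAJC10, an ER disulfide reductase, changed by -0.55 (adjusted p = 0.0157) and CRELD2 by -0.49 (adjusted p = 0.0255). DNAJC10 did not pass without any 1 T47D array (adjusted p up to 0.0606). CRELD2 did not pass without any 1 T47D array, MDA-MB-231 shCtrl replicate 1 or MDA-MB-231 shXBP1 replicate 2 (up to 0.0861). DNAJC1 and UGGT1 were the other members that fell, each by 0.46. FKBP11, an ER prolyl isomerase, went the other way. It read 6.61 and 6.73 against 7.47 and 7.52 in T47D, and 7.08 and 7.4 against 7.76 and 7.66 in MDA-MB-231 (average 0.65, SE 0.11, adjusted p = 0.0122). Without 1 T47D array, 5 or 6 members fell, against 6 to 9 without 1 MDA-MB-231 array, and the median of the list was -0.199 when probe sets were averaged.

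**Figure D2:**
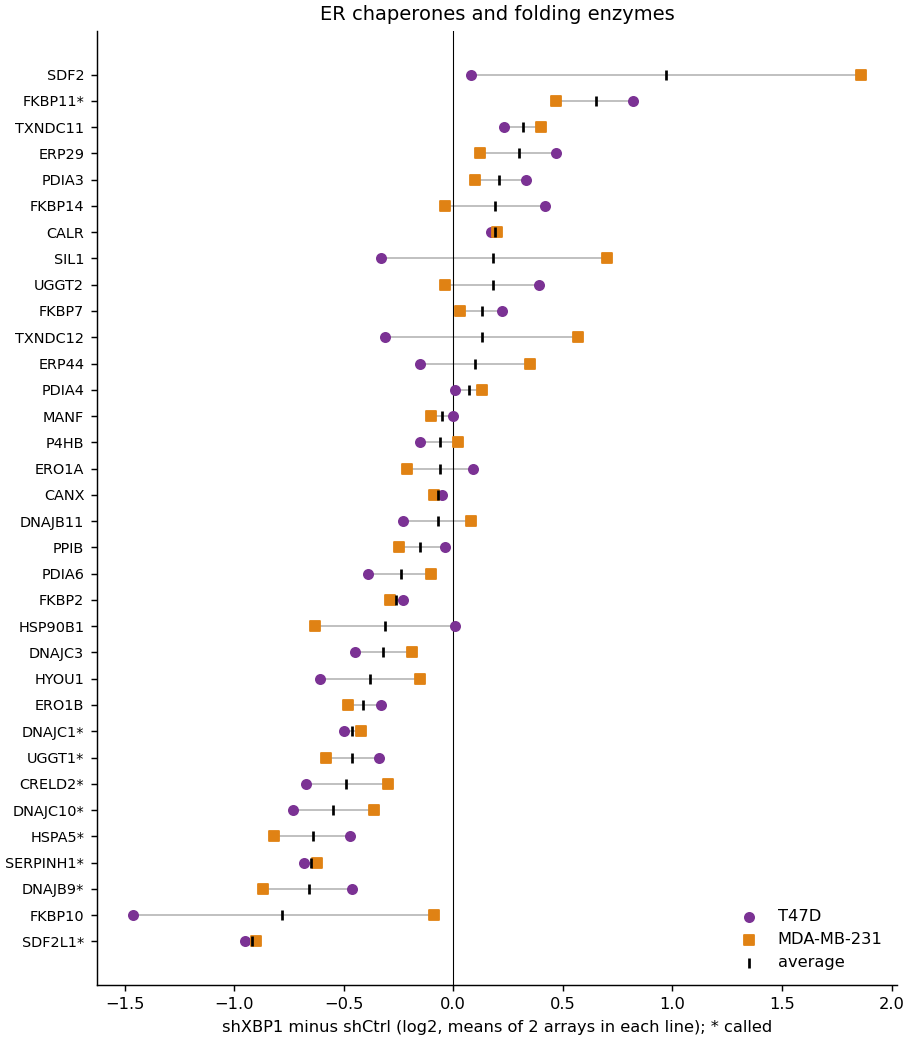
Change with shXBP1 for the 34 ER chaperones and folding enzymes, in log2 units: circles give T47D, squares MDA-MB-231 (differences of means of 2 arrays) and ticks their average. An asterisk marks the 9 called genes, of which 8 lie left of 0 and FKBP11 lies right of 0 in both lines.

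A list of 36 textbook XBP1 targets, which overlaps the chaperones, held 4 genes that fell (11.1% called, against 8.55% of all genes). The other 32 did not pass. The 4 were SDF2L1, DNAJB9, DNAJC10 and CRELD2, and without 1 T47D array the list held 2 called genes. In limma 2 members were higher and 8 lower at an unadjusted p under 0.05. EDEM1, which directs misfolded glycoproteins to degradation, had a change of -0.43 just outside the threshold (adjusted p = 0.0518). It passed with the filters on dim genes, with averaged probe sets or with quantile normalization applied again (adjusted p 0.0317 to 0.048), and when replicate 2 of MDA-MB-231 shXBP1 was left out (-0.506, adjusted p = 0.0435). SEC61A1, the core of the translocation channel, changed by -0.08 (adjusted p = 0.681), while its second probe set gave 0.48 (adjusted p = 0.045) and the mean over both 0.197. HERPUD1, a degradation factor, changed by -0.20 (adjusted p = 0.281). T47D and MDA-MB-231 had list medians of -0.25 and 0.05.

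Among the promoters, ERSE occurred in 16 of 15384 (0.104%). It occurred in 3 of 543 promoters of genes that fell (0.552%), those of HSPA5, CRELD2 and XBP1 itself, and in 0 of 852 promoters of genes that rose. XBP1 is counted here although it is the target of the hairpin, and the call of CRELD2 depended on single arrays, as given above. Other genes with ERSE, among them CALR (0.19), CANX (-0.07) and HSP90B1 (-0.31), did not pass. ERSE-II occurred in 14 promoters (0.091%), of which SDF2L1 alone was called, while HERPUD1 and HYOU1 (-0.38, adjusted p = 0.0783) were not. UPRE occurred in 122 promoters (0.793%), in 6 of the genes that fell (1.1%), including DNAJC10, and in 4 of those that rose (0.469%). Over all genes with each motif the median change was -0.05 for ERSE, -0.15 for ERSE-II and -0.01 for UPRE. In 1 promoter both ERSE-II and UPRE were found. A match describes letters and not binding.

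In translocation into the ER, 1 of 36 genes rose and 2 fell (8.3% called, near the 8.55% of all genes). EMC1, a subunit of the ER membrane protein insertase, fell from 9.56 and 9.54 to 8.56 and 8.43 in T47D and from 10.03 and 10.06 to 9.37 and 9.35 in MDA-MB-231 (average -0.87, SE 0.10, adjusted p = 0.00229). SRP72 of the signal recognition particle changed by -0.44 (adjusted p = 0.0409) and its receptor gene SRPRA by 0.54 (adjusted p = 0.0464). SRP72 did not pass without any 1 of the 8 arrays (adjusted p 0.0522 to 0.101), but did averaged over probe sets (-0.292, adjusted p = 0.0287). SRPRA passed with 1 array left out only in the case of MDA-MB-231 shCtrl replicate 1 (adjusted p up to 0.137), and averaged over probe sets its change was 0.243. The list held 1 called gene when any T47D array was left out.

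Of 38 N-glycosylation genes, 5 fell and 2 rose (18.4% called, against 8.55% of all genes), with a median of -0.07. T47D tested alone had 3 higher and 17 lower (median -0.17). MDA-MB-231 tested alone had 12 higher and 6 lower (median 0.11). DPM3, which anchors dolichol-phosphate mannose synthase, fell by 0.79 (SE 0.11, adjusted p = 0.00433). UAP1, which makes the sugar donor UDP-GlcNAc, rose by 0.66 (SE 0.10, adjusted p = 0.00705), and the mannosyltransferase gene ALG2 by 0.66 (SE 0.12, adjusted p = 0.0133). A dim ALG2 probe set gave 0.10, and averaging both gave 0.377 (adjusted p = 0.0314). MAN1A2, a Golgi mannosidase that trims N-glycans and was outside that list, fell from 9.24 and 9.36 to 7.45 and 7.63 in T47D and from 9.59 and 9.51 to 7.66 and 8.1 in MDA-MB-231. With any T47D array left out, 2 or 3 genes of the list fell. The average change of MAN1A2, -1.71 (SE 0.11, adjusted p = 0.000603), was a 3.28-fold fall, with a difference between the lines of 0.09 (SE 0.21, adjusted p = 0.801). Its other 5 probe sets, all dimmer, gave -1.08, -0.86, -0.67, 0.08 and 0.22, and averaged over probe sets MAN1A2 changed by -0.670 (adjusted p = 0.0029).

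In ER-associated degradation, 1 of 30 genes rose and 3 fell (13.3% called, against 8.55% of all genes). SELENOS, a selenoprotein of the degradation complex, fell from 12.37 and 12.46 to 11.41 and 11.46 in T47D and from 12.35 and 12.36 to 11.94 and 11.83 in MDA-MB-231 (average -0.73, SE 0.12, adjusted p = 0.00892). HERPUD2, a paralog of HERPUD1, rose by 0.79 in T47D and 0.78 in MDA-MB-231 (SE 0.08, adjusted p = 0.00188). The other members that fell were the ubiquitin ligase gene RNF139 and UBXN4, both by 0.70 on average. Of 48 genes of ER to Golgi transport, 3 rose and 0 fell (6.2% called, against 8.55% of all genes). At an unadjusted p under 0.05 in limma, 10 were higher and 4 lower. GBF1, an exchange factor for the small GTPases that start COPI vesicles, rose by 1.36 (SE 0.22, adjusted p = 0.01), more in MDA-MB-231 (1.91) than in T47D (0.80). The other 2 were SEC22B (0.33) and TMED5 (0.45), and with 1 array left out only 1 gene of the list rose in each case. Of 13 substrates of IRE1-dependent decay, SPARC rose (0.72, limma adjusted p = 0.0175) and 12 did not pass (7.7% called, near the 8.55% of all genes).

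None of 16 sensors and transcription factors of the unfolded protein response passed in limma, and at an unadjusted p under 0.05 4 were higher and 2 lower. ERN1 read 9.14 and 9.15 against 10.75 and 10.73 in T47D, and 6.06 and 5.86 against 6.1 and 6.25 in MDA-MB-231. Its average of 0.90 did not pass (adjusted p = 0.067), and the difference between the lines was -1.37 (SE 0.14, adjusted p = 0.000639). It passed with the mean over its 3 probe sets, at 0.430 (adjusted p = 0.0358), with the stricter filter on dim genes (adjusted p = 0.0497) and without MDA-MB-231 shCtrl replicate 1 (1.079, adjusted p = 0.0466). EIF2AK3 had changes of 1.77 in T47D and -0.15 in MDA-MB-231 (average 0.81, or 0.355 averaged over probe sets, adjusted p = 0.198 and 0.281), and DDIT3, the stress factor CHOP, of 0.42 and -1.29 (average -0.43, adjusted p = 0.482). ATF6 at its brightest probe set changed by -0.17 (adjusted p = 0.237), while its other 3 probe sets, with changes of -0.45 to -0.53, each passed when tested one by one (adjusted p 0.0108 to 0.0341). ATF4 changed by 0.27 (adjusted p = 0.132).

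Of 43 PERK and ATF4 targets, 9 rose, 3 fell and 31 did not pass (27.9% called, against 8.55% of all genes), with a median of 0.14. Tested alone, T47D had 21 higher and 6 lower with a median of 0.35, and MDA-MB-231 had 8 higher and 11 lower with a median of 0.0. ATF3, an early stress factor, read 11.39 and 11.63 against 12.93 and 12.88 in T47D, and 11.32 and 11.27 against 12.24 and 12.03 in MDA-MB-231. Its change of 1.12 (SE 0.13, adjusted p = 0.00272) was 2.17-fold. Of 9 aminoacyl-tRNA synthetases in the list, a subgroup named after its values were seen, 5 rose (55.6%) and 1 fell (11.1%). The shares of all genes were 5.17% that rose and 3.38% that fell. WARS1 rose by 0.89 (adjusted p = 0.0139), AARS1 and TARS1 by 0.42 each, SARS1 by 0.38 and GARS1 by 0.34, while CARS1 fell by 0.54. Second probe sets of SARS1 and TARS1 gave -0.11 and -0.09, and averaged over probe sets their changes were 0.135 and 0.170 and did not pass (adjusted p = 0.539 and 0.549).

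These synthetase calls were close to the threshold. WARS1 did not pass without T47D shXBP1 replicate 2 (adjusted p = 0.0518). AARS1 did not pass without any 1 T47D array or without MDA-MB-231 shCtrl replicate 2 (up to 0.0808), and GARS1 did not pass without any 1 of the 8 arrays (0.0504 to 0.107). SARS1 passed with 1 array left out only in the case of MDA-MB-231 shXBP1 replicate 2, and TARS1 only without T47D shCtrl replicate 2 or MDA-MB-231 shXBP1 replicate 1. Over the list, 1 to 4 members rose without 1 T47D array and 4 to 6 without 1 MDA-MB-231 array.

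HIF1 targets, genes of the hypoxia response, included 4 of 57 that fell and 1 that rose (8.8% called, near the 8.55% of all genes), with a median of -0.07. Of the 57, 21 were lower and 7 higher in both lines, and at an unadjusted p under 0.05 in limma 13 were lower and 5 higher. Both glucose transporter genes of the list fell. SLC2A1, encoding GLUT1, read 11.5 and 11.65 against 10.48 and 10.38 in T47D, and 10.81 and 10.63 against 9.94 and 9.68 in MDA-MB-231. The average change of SLC2A1 was -1.03 (SE 0.10, adjusted p = 0.00149), or 2.04-fold lower, and a dim second probe set gave -0.36 (adjusted p = 0.461). SLC2A3, encoding GLUT3, read 6.97 and 6.77 against 4.84 and 4.89 in T47D, and 12.73 and 12.66 against 11.74 and 11.88 in MDA-MB-231. Its change was -1.45 (SE 0.21, adjusted p = 0.00631), larger in T47D (-2.01) than in MDA-MB-231 (-0.88), with a difference of 1.13 (SE 0.15, adjusted p = 0.00142). Of its other 2 probe sets, 1 passed when tested one by one (-0.79, adjusted p = 0.00831) and 1 did not (-0.27, adjusted p = 0.506), and the mean over the 3 changed by -0.837 (adjusted p = 0.0243).

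BHLHE40, a repressor induced by hypoxia, fell by 0.71 (SE 0.09, adjusted p = 0.00284), with -0.77 and -0.66 in the lines. PGAM1, a glycolytic enzyme, was the fourth gene that fell (-0.56, adjusted p = 0.0313), and TFRC, the transferrin receptor, rose (0.37, adjusted p = 0.0468). Several other hypoxia genes had opposite signs in the lines and did not pass. PDK1, which restrains pyruvate oxidation, had changes of 0.62 in T47D and -1.17 in MDA-MB-231 (average -0.28, adjusted p = 0.668). KDM3A, a histone demethylase, had 1.01 and -1.01 (average 0.00, adjusted p = 0.999), DDIT4, an mTOR inhibitor, 0.85 and -0.78, VEGFA, the angiogenic factor, 0.42 and -0.71, and HIF1A itself 0.27 and -0.30. The averages of DDIT4, VEGFA and HIF1A were 0.04, -0.14 and -0.01 and did not pass (adjusted p 0.759 to 0.97).

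**Figure D3:**
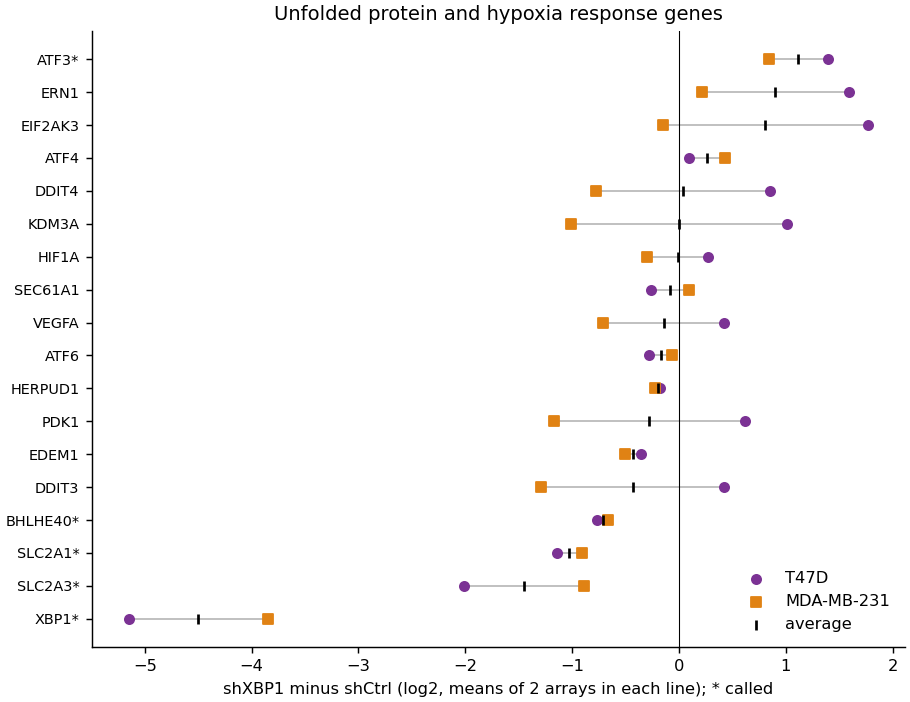
Change with shXBP1 for 18 genes of the unfolded protein and hypoxia responses, in log2 units: circles give T47D, squares MDA-MB-231 (differences of means of 2 arrays) and ticks their average. Asterisks mark the 5 called genes XBP1, SLC2A3, SLC2A1, BHLHE40 and ATF3. KDM3A, PDK1, DDIT3, DDIT4, VEGFA, HIF1A and EIF2AK3 lie right of 0 in T47D and left of 0 in MDA-MB-231.

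Lipid synthesis fell in part. Of 39 genes for sterols, fatty acids and phospholipids, 9 fell, 1 rose and 29 did not pass, with a median of -0.20. The share called was 25.6%, against 8.55% of all genes. T47D tested alone had 5 higher and 21 lower, and MDA-MB-231 tested alone had 5 higher and 10 lower. ACLY, which makes cytosolic acetyl-CoA, read 12.82 and 12.75 against 11.43 and 11.47 in T47D, and 12.63 on both shCtrl arrays against 11.82 and 11.89 in MDA-MB-231. Its change of -1.06 (SE 0.12, adjusted p = 0.00235) was 2.08-fold, and its other 2 probe sets gave -0.95 and -0.92. FASN, the fatty acid synthase, fell from 9.61 and 9.47 to 8.53 and 8.52 in T47D and from 9.83 and 9.8 to 9.26 and 9.35 in MDA-MB-231 (average -0.76, SE 0.12, adjusted p = 0.0076). A dimmer FASN probe set (mean 6.87) gave -0.01 (adjusted p = 0.974), and the mean over both -0.383 (adjusted p = 0.0212).

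Named after their values were seen, SREBF1, the transcription factor of fatty acid synthesis genes, fell by 0.65 (SE 0.09, adjusted p = 0.00452) and IDI1, of the isoprenoid pathway, by 0.59 (SE 0.07, adjusted p = 0.00357). The changes in T47D and MDA-MB-231 were -0.66 and -0.65 for SREBF1, and -0.60 and -0.57 for IDI1. GPAM, which starts glycerolipid synthesis, rose by 0.69 (SE 0.08, adjusted p = 0.0026). A second GPAM probe set gave 0.03, and averaging both gave 0.363 (adjusted p = 0.122). Without 1 T47D array, 5 members of the lipid list fell, against 6 to 8 without 1 MDA-MB-231 array.

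Of 48 genes of DNA replication and the G1/S transition, 10 fell (20.8% called, against 8.55% of all genes) and 38 did not pass, with a median of -0.26. Called rises numbered 0, against 5 higher and 24 lower at an unadjusted p under 0.05 in limma. T47D tested alone had 1 higher and 31 lower (median -0.47). MDA-MB-231 tested alone had 6 higher and 7 lower (median -0.09). DTL, a ubiquitin ligase adaptor of S phase, fell from 10.62 and 10.6 to 9.52 and 9.68 in T47D and from 11.98 and 11.85 to 11.06 and 11.14 in MDA-MB-231 (average -0.91, SE 0.09, adjusted p = 0.0013). CCNE2, cyclin E2, fell from 11.11 and 11.14 to 10.15 and 10.35 in T47D and from 10.46 and 10.45 to 9.54 and 9.9 in MDA-MB-231 (average -0.80, SE 0.10, adjusted p = 0.00381). Both genes were lower on every shXBP1 array than on any shCtrl array of the same line. Such a separation held for 1685 of the 1690 called genes and adds no support. Without 1 T47D array, 2 or 3 members fell, against 7 to 9 without 1 MDA-MB-231 array.

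Genes of mitosis and G2/M had opposite medians in the lines, at -0.58 in T47D and 0.33 in MDA-MB-231. Only 3 of 53 were called (5.7%, against 8.55% of all genes). TOP2A, the topoisomerase of dividing cells, had the largest average fall after XBP1. It read 11.42 and 11.35 against 8.26 and 8.3 in T47D, and 11.89 on both shCtrl arrays against 10.0 and 10.34 in MDA-MB-231. The change of -2.41 (SE 0.26, adjusted p = 0.00195) was 5.32-fold, with -3.10 and -1.72 in the lines, and its other 2 probe sets gave -2.11 and -1.33. KIF4A, a chromosome-bound kinesin, fell by 0.71 (SE 0.10, adjusted p = 0.00639). SMC4 of condensin rose by 0.59 at its brightest probe set (adjusted p = 0.00615), but its other 2 gave -0.12 and -0.87, and the mean over the 3 was -0.135 (adjusted p = 0.491).

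Of 58 oxidative phosphorylation genes, which serve mitochondrial respiration, 11 fell, by 0.30 to 0.58, and 47 did not pass. The share called was 19.0%, against 8.55% of all genes. Of all 58, 45 were lower in both lines, and the median was -0.22, with -0.33 in T47D and -0.12 in MDA-MB-231. No member rose, and at an unadjusted p under 0.05 in limma 0 were higher and 31 lower. Split by complex after the values were seen, 7 of 25 complex I subunits, 3 of 14 ATP synthase subunits and 1 of 10 complex IV subunits fell. NDUFS7 of complex I fell by 0.50 (SE 0.08, adjusted p = 0.00786) and NDUFA2 by 0.47 (SE 0.08, adjusted p = 0.0101). Averaged over probe sets these changes were -0.312 and -0.209 and did not pass (adjusted p = 0.0627 and 0.134). Without 1 T47D array, 2 or 3 members fell, against 3 to 7 without 1 MDA-MB-231 array. Of 33 proteasome genes, the assembly chaperone gene PSMG2 fell (-0.37, adjusted p = 0.0398), and it passed with 1 array left out only in the case of MDA-MB-231 shXBP1 replicate 1. The share of the proteasome list called was 3.0%, below the 8.55% of all genes. T47D tested alone had 1 proteasome gene higher and 14 lower (median -0.21). MDA-MB-231 tested alone had 6 higher and 0 lower (median 0.03). None of 37 cytosolic ribosomal protein genes passed in limma, nor did any at an unadjusted p under 0.05.

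**Figure D4:**
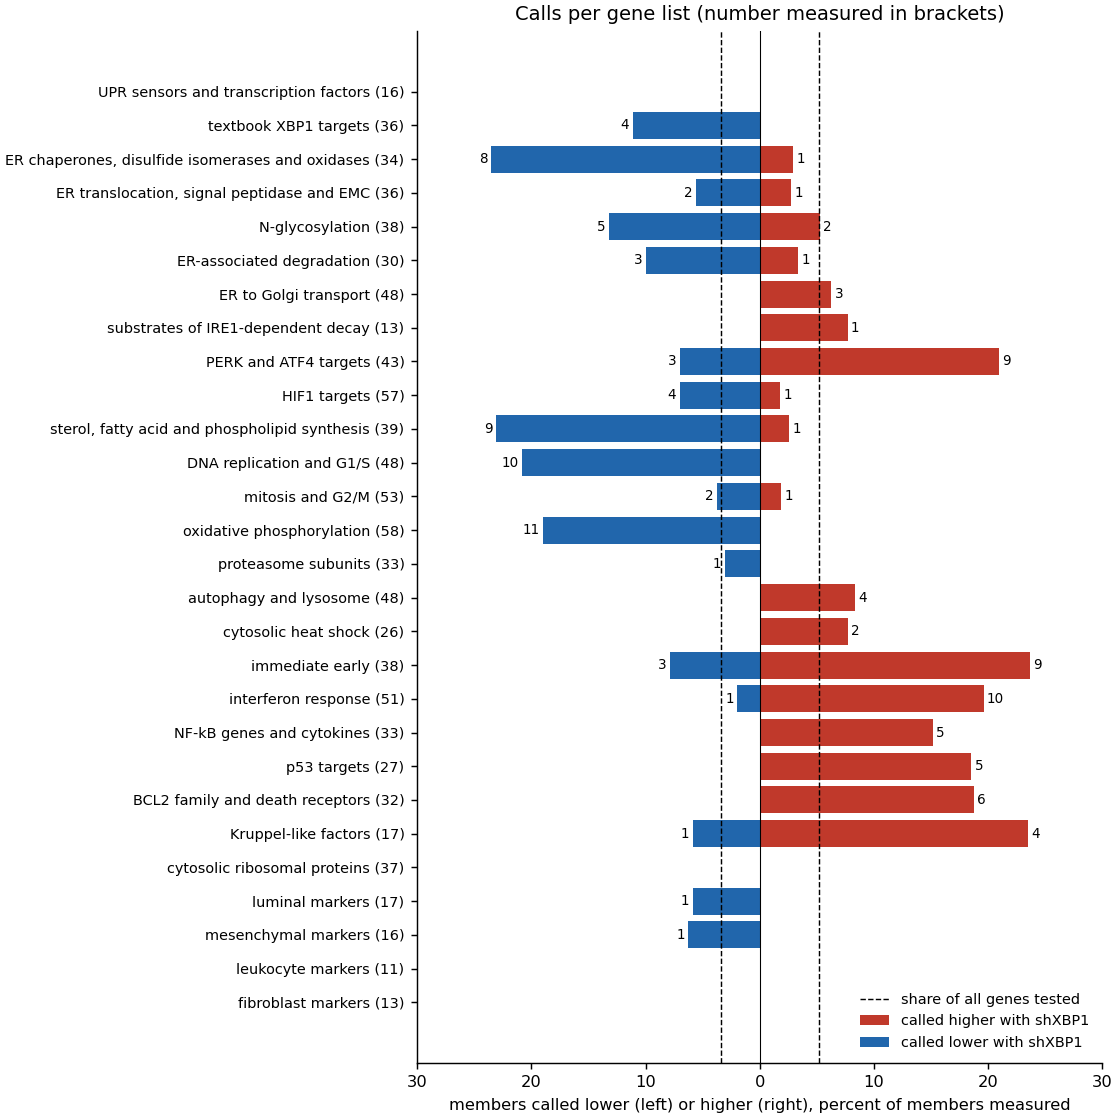
Share of measured members of each of 28 gene lists that were called higher (right, red) or lower (left, blue) with shXBP1, in percent, with the number of called genes at each bar. Dashed lines mark the shares of all genes, 5.17% higher and 3.38% lower. Chaperones, lipid synthesis, replication and oxidative phosphorylation reach furthest left, and immediate early genes, Kruppel-like factors, PERK and ATF4 targets and the interferon response furthest right.

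Immediate early genes, which respond first to growth factors and stress, had 9 of 38 that rose and 3 that fell (31.6% called, against 8.55% of all genes). Their median was 0.28 (0.141 with probe sets averaged). ZFP36, which promotes decay of cytokine mRNAs, read 8.73 and 8.48 against 10.62 and 10.61 in T47D, and 7.56 and 7.82 against 9.81 and 9.3 in MDA-MB-231. Its change of 1.94 (SE 0.13, adjusted p = 0.000603) was 3.83-fold, and the lines differed by -0.15 (SE 0.25, adjusted p = 0.733). DUSP4, a phosphatase that turns off MAP kinases, fell from 10.3 and 10.47 to 9.03 and 9.04 in T47D and from 12.34 and 12.23 to 10.8 and 10.78 in MDA-MB-231 (average -1.42, SE 0.08, adjusted p = 0.00042). Named after their values were seen, the AP-1 subunit genes JUN and JUNB rose by 0.83 (SE 0.11, adjusted p = 0.00414) and 0.76 (SE 0.08, adjusted p = 0.00218). T47D and MDA-MB-231 had list medians of 0.28 and 0.05, and 6 or 7 members rose without 1 T47D array.

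Interferon response genes rose in 10 of 51 cases and fell in 1 (21.6% called, against 8.55% of all genes), with a median of 0.27. T47D tested alone was mixed, with 13 higher and 11 lower (median 0.12). MDA-MB-231 tested alone had 23 higher and 0 lower (median 0.27). IFIT1, which binds foreign RNA ends, read 6.86 and 6.99 against 8.02 and 7.84 in T47D, and 7.76 and 7.9 against 10.18 and 10.51 in MDA-MB-231. The average was 1.76 (SE 0.28, adjusted p = 0.00906), and the rise was larger in MDA-MB-231 (2.52) than in T47D (1.00), by 1.52 (SE 0.19, adjusted p = 0.00124). IFIT3 rose by 1.67 and SAMD9, an antiviral restriction factor, by 1.96 (SE 0.27 and 0.29, adjusted p = 0.00904 and 0.00615), both more in MDA-MB-231 as well. A dimmer IFIT3 probe set gave 0.77 and did not pass (limma adjusted p = 0.131), with 0.08 in T47D and 1.46 in MDA-MB-231. For SAMD9, a second probe set of like brightness gave 0.87 (limma adjusted p = 0.0979), with 0.16 in T47D and 1.58 in MDA-MB-231.

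Also named after their values were seen were OAS1 and IRF1. OAS1, a sensor of double-stranded RNA, read 5.59 and 5.75 against 6.75 and 6.71 in T47D, and 8.79 and 8.87 against 9.77 and 9.84 in MDA-MB-231 (average 1.02, SE 0.08, adjusted p = 0.000811). IRF1, a transcription factor of this response, rose by 0.92 (SE 0.11, adjusted p = 0.00261), with 1.02 and 0.82. IFITM2 was the member that fell (-0.65, adjusted p = 0.0357). Of 33 NF-kB genes and cytokines, 5 rose (15.2% called, against 8.55% of all genes). NFKBIZ, an atypical inhibitor of NF-kB, rose by 0.91 (SE 0.12, adjusted p = 0.00357) and TNIP1 by 0.84 (SE 0.14, adjusted p = 0.0123). Averaged over probe sets, neither passed (0.376 and 0.421, adjusted p = 0.136 and 0.123). A second NFKBIZ probe set of like brightness gave 0.43 in T47D and -0.74 in MDA-MB-231 (average -0.16, limma adjusted p = 0.786). The other 3 genes that rose were RELB (0.59), ICAM1 (0.40) and IL6 (0.85). IL6 changed by 1.41 in MDA-MB-231 and by 0.28 in T47D (limma adjusted p = 0.0724). In T47D it read 4.86 to 5.23, below the median of all probe sets. Only 2 or 3 genes of this list rose without 1 T47D array.

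Of 27 p53 targets 5 rose (18.5% called), and of 32 genes of the BCL2 family and death receptors 6 rose (18.8% called). Of all genes 8.55% were called. FAS, a death receptor in both lists, read 9.27 and 9.14 against 9.96 and 9.97 in T47D, and 9.15 and 9.08 against 10.32 and 10.22 in MDA-MB-231. Its change was 0.95 (SE 0.10, adjusted p = 0.00197), and 3 of its other 4 probe sets gave 1.07 to 1.21 while the dimmest gave 0.08. CASP8, the initiator caspase downstream of FAS, rose by 0.77 (SE 0.09, adjusted p = 0.0026), but with the mean over its 3 probe sets by 0.293, which did not pass (adjusted p = 0.116). SESN1, a stress-induced inhibitor of mTOR signalling, rose by 0.97 (SE 0.17, adjusted p = 0.0139), more in T47D (1.42) than in MDA-MB-231 (0.53). PHLDA3, an AKT inhibitor, rose by 0.76 (SE 0.11, adjusted p = 0.00631).

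Cytosolic heat shock genes had 2 of 26 that rose (7.7% called, near the 8.55% of all genes), 24 that did not pass and a median of 0.22. The lines differed, with list medians of -0.07 in T47D and 0.33 in MDA-MB-231, and 15 of the 26 had opposite signs. T47D tested alone had 6 higher and 3 lower, and MDA-MB-231 tested alone had 13 higher and 0 lower. HSPB8, a small heat shock protein of chaperone-assisted autophagy, read 10.75 and 10.98 against 12.42 and 12.22 in T47D, and 8.21 and 8.19 against 10.23 and 10.09 in MDA-MB-231. It rose by 1.71 (SE 0.13, adjusted p = 0.000695), a 3.27-fold change, and its dimmer probe set gave 0.90. HSPA2, an Hsp70 gene, read 4.79 and 4.75 against 5.55 and 5.88 in T47D, and 4.6 and 4.89 against 8.46 and 8.05 in MDA-MB-231. Its rise was larger in MDA-MB-231 (3.52) than in T47D (0.95), and the average of 2.23 (SE 0.46, adjusted p = 0.0239) did not pass without any 1 MDA-MB-231 array (0.051 to 0.0662). Of 48 autophagy and lysosome genes 4 rose (1 to 3 without 1 T47D array) and 44 did not pass, with a median of 0.03. The 4 were ATG5 (0.40), ATG9A (0.80), PIK3C3 (0.54, but -0.014 averaged over its probe sets) and CTSA (0.50). The share of the autophagy and lysosome list called, 8.3%, was near the 8.55% of all genes.

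The largest average rise was that of ADRB1, the beta-1 adrenergic receptor. It read 3.71 and 4.01 against 6.79 and 6.57 in T47D, and 4.23 and 4.16 against 7.52 and 6.82 in MDA-MB-231. The change of 2.90 (SE 0.16, adjusted p = 0.00042) was 7.45-fold from shCtrl levels below the median of all probe sets. Its other 2 probe sets gave -0.21 and 0.12 and did not pass, so this rise rests on 1 of 3 probe sets (mean over the 3, 0.935). PLAGL2, a zinc finger transcription factor, read 5.6 and 5.57 against 8.25 and 8.23 in T47D, and 5.15 and 4.79 against 6.74 and 6.91 in MDA-MB-231 (average 2.26, SE 0.17, adjusted p = 0.000763). A second PLAGL2 probe set gave 0.87.

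CDKN2B, the CDK inhibitor p15, read 5.12 and 5.18 against 7.2 and 7.49 in T47D, and 7.29 and 7.03 against 8.97 and 8.48 in MDA-MB-231. It rose by 1.88 (SE 0.17, adjusted p = 0.00114), or 3.69-fold, and a dimmer probe set gave 0.25 (mean over both, 1.067). FLRT3, a transmembrane adhesion and axon guidance protein, rose by 1.97 (SE 0.24, adjusted p = 0.00311), and its second probe set gave 1.93. NABP1, a single-stranded DNA-binding protein, rose by 1.81 (SE 0.13, adjusted p = 0.000603) and LYPD3, a surface protein of epithelial cells, by 1.77 (SE 0.10, adjusted p = 0.00042). CLIC3, of the chloride intracellular channel family, rose by 1.77 from very different levels. It read 9.56 on both T47D shCtrl arrays and 5.38 and 5.58 on the MDA-MB-231 shCtrl arrays.

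PTGER4, the prostaglandin E2 receptor EP4, was bright in both lines and read 11.72 and 11.78 against 13.21 and 13.16 in T47D, and 9.01 and 9.02 against 10.79 and 10.53 in MDA-MB-231. Its rise of 1.54 (SE 0.09, adjusted p = 0.00042) was 2.91-fold, with a difference between the lines of 0.21 (SE 0.15, adjusted p = 0.362). A much dimmer PTGER4 probe set gave 0.26 (adjusted p = 0.345), and the mean over both 0.899 (adjusted p = 0.00106). ATXN1-AS1, an RNA antisense to ATXN1, rose by 1.93 (SE 0.25, adjusted p = 0.00357) at 1 probe set, while its other gave -0.11 (mean over both, 0.911). ZNF823, a zinc finger gene, rose by 1.85 (SE 0.23, adjusted p = 0.00308). Of 17 Kruppel-like factors 4 rose and 1 fell (29.4% called, against 8.55% of all genes). The changes were 2.11 for KLF3, 1.35 for KLF11, 1.19 for KLF4, 1.03 for KLF6 and -0.51 for KLF7. The 4 rises were larger in T47D, at 3.46 against 0.76 in MDA-MB-231 for KLF3 and 2.03 against 0.67 for KLF11. For KLF4 the changes were 2.01 and 0.37, and for KLF6 1.54 and 0.51. The other KLF3 probe sets gave 0.89 to 2.51 in T47D but -0.10, 0.06 and 0.04 in MDA-MB-231. A dimmer KLF11 probe set gave 1.33 in T47D and -0.18 in MDA-MB-231 (average 0.57, limma adjusted p = 0.292). KLF3 did not pass without any 1 T47D array (adjusted p 0.092 to 0.0975), when 0 or 1 of the 17 rose, nor averaged over probe sets (1.235, adjusted p = 0.0902).

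Large falls included CRYZ, a quinone reductase, which read 11.15 and 11.14 against 8.54 and 8.72 in T47D, and 11.55 and 11.53 against 10.06 and 10.12 in MDA-MB-231. Its change was -1.98 (SE 0.20, adjusted p = 0.00154), or 3.95-fold lower. XK, a membrane protein of red cells, fell from 6.7 and 7.15 to 5.05 and 5.16 in T47D and from 7.3 and 7.15 to 5.22 and 5.63 in MDA-MB-231 (average -1.81, SE 0.13, adjusted p = 0.000691). SIVA1, a pro-apoptotic protein, fell by 1.68 (SE 0.13, adjusted p = 0.000811) and PHF5A, of the splicing factor complex SF3b, by 1.5 (SE 0.12, adjusted p = 0.000811).

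LRP8, a receptor for apolipoprotein E and reelin, fell by 1.55 (SE 0.18, adjusted p = 0.00278) and CYP1B1, a cytochrome P450 that oxidises oestrogens, by 1.5 (SE 0.14, adjusted p = 0.0013). Both fell more in T47D, by 0.96 and 0.68. Probe sets disagreed for DOCK5 and CHP1. DOCK5, a guanine nucleotide exchange factor, changed by -2.14 at its brightest probe set, and its other 7 ranged from -1.32 to 0.34 (mean over the 8, -0.691). CHP1, a partner of sodium-proton exchangers, changed by -2.06 at its brightest, and its other gave 0.10 (mean over both, -0.978).

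**Figure D5:**
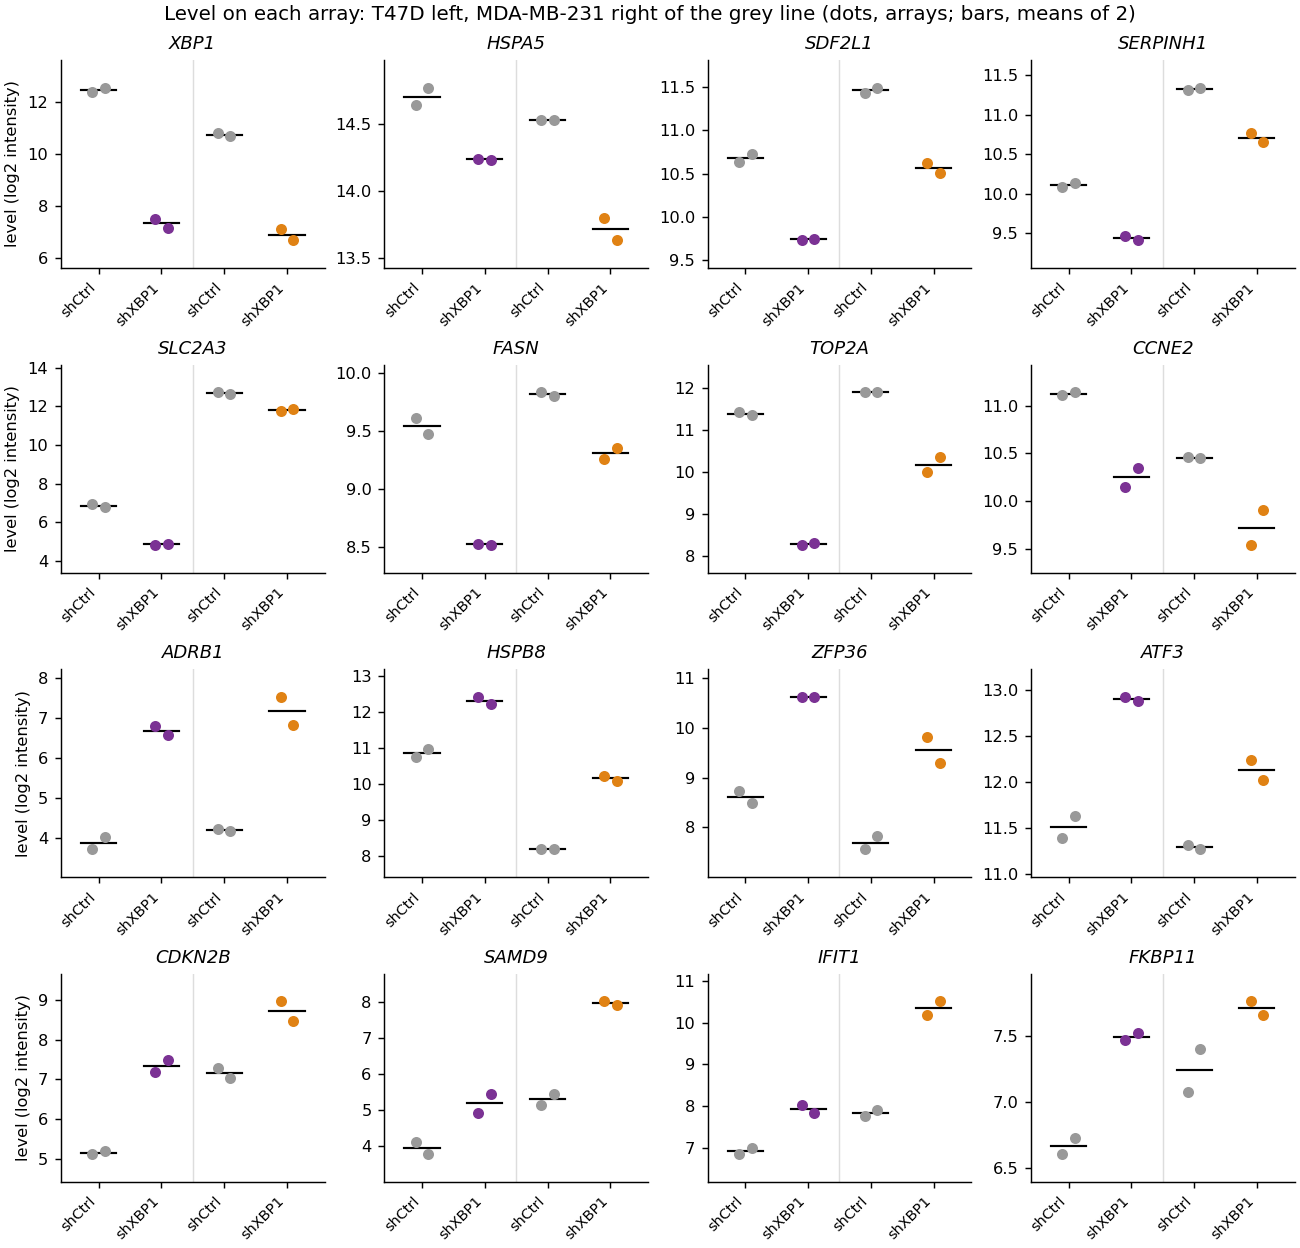
Level of 16 genes on each of the 8 arrays, in log2 intensity, with T47D on the left and MDA-MB-231 on the right of each panel (grey, shCtrl; purple and orange, shXBP1). Dots are arrays and bars are means of 2. Within each line, both shXBP1 arrays of every gene shown lie together above or below both shCtrl arrays, as for XBP1 at 7.52 and 7.16 against 12.41 and 12.56 in T47D. The choice of genes fixed this in part, since the largest changes were ranked only among genes separated in this way.

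The markers of line identity moved little in common. Of 17 luminal markers TFF3 fell (-0.54, limma adjusted p = 0.0306). Of 16 mesenchymal markers EGFR fell at its brightest probe set (-0.43, limma adjusted p = 0.0251). The shares called, 5.9% and 6.2%, were below the 8.55% of all genes. TFF3 changed by -0.68 in T47D and by -0.41 in MDA-MB-231, where it did not pass alone (limma adjusted p = 0.113). None of the other 8 EGFR probe sets passed, and the one nearest in brightness gave -0.02 (adjusted p = 0.956). The luminal markers averaged 12.67 with shCtrl and 12.57 with shXBP1 in T47D, and the mesenchymal markers 10.69 and 10.7 in MDA-MB-231.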

How the data were processed

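RNA of 8 samples was measured on one-colour Affymetrix arrays with 54675 probe sets. The authors deposited log2 values made with RMA, a method that corrects background, normalizes by quantiles and summarises probes, in affy 1.30.0, per the submitters' processing notes. Whether all 8 were normalized as 1 set is not given there. RMA compresses folds against dim levels. Values ran from 2.75 to 15.6, with array medians of 5.87 to 5.91. Names came from the platform annotation, in which 41091 probe sets had 1 symbol and 1801 had several and were not used. Each of 19775 genes was read at the brightest, by mean over all arrays, of its probe sets with 1 symbol.

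In R 4.3.3 with limma 3.58.1 (lmFit, eBayes), an additive fit of line and hairpin (5 residual degrees of freedom, median SE 0.116) gave the average change. A fit of 4 group means gave each line's change and the difference (MDA-MB-231 minus T47D). Tests were two-sided, adjusted by Benjamini-Hochberg over all genes, with a threshold of 0.05, and were checked on simulated data. The number of arrays limits the precision. The labels do not say that replicates were separate cultures, so p-values may measure technical spread. Same-numbered shCtrl and shXBP1 arrays did not deviate together (correlations of 0.002 in T47D and -0.069 in MDA-MB-231). With 2 replicates per group these correlations cannot exclude a pairing, which the labels do not state.

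The members, the 28 gene lists and the rule for named genes were chosen with earlier results of these data known. The rule took XBP1, 17 stress genes and up to 4 called members per list (or 2 by p where none was called). It also took the 15 largest rises and falls by average and by the smaller of both lines' changes. These were ranked only among called genes whose shXBP1 and shCtrl arrays did not overlap within either line. Of the genes taken a part is printed, and other genes are marked as named after their values were seen or complete a short count. Alternatives were arrays left out in turn, filters on dim genes, probe set rules, normalization, moderation, the model and the replicate block.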

Additional observations from a re-analysis of the deposited data

Results flagged for a closer look

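The difference between the lines (MDA-MB-231 change minus T47D change, log2, limma group means fit) had an adjusted p under 0.05 for 36 of the genes given above with full values, and for 7 of those given only to complete a count (KLF4, KLF11, KLF6, IL6, UBXN4, PGAM1 and RNF139). XBP1 (1.3) was among them, its fall being larger in T47D. For genes that fell on average, a positive value means a larger fall in T47D: CHP1 (1.29), TOP2A (1.38), SLC2A3 (1.13), CRYZ (1.06), LRP8 (0.96), CYP1B1 (0.68), DOCK5 (0.63), SIVA1 (0.61), ACLY (0.55), SELENOS (0.51), FASN (0.51) and KIF4A (0.42). SRP72 (-0.44) fell more in MDA-MB-231. Among genes that rose, KLF3 (-2.71), SESN1 (-0.90), PLAGL2 (-0.80), WARS1 (-0.80), SRPRA (-0.66), ATF3 (-0.56) and NABP1 (-0.52) rose more in T47D. HSPA2 (2.57), IFIT1 (1.52), SAMD9 (1.43), IFIT3 (1.38), GBF1 (1.12), TNIP1 (0.64) and ALG2 (0.52) rose more in MDA-MB-231.

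Genes without a called average effect also differed between the lines: KDM3A (-2.03), EIF2AK3 (-1.92), PDK1 (-1.79), DDIT3 (-1.71), DDIT4 (-1.63), ERN1 (-1.37), VEGFA (-1.13) and HIF1A (-0.57). Groups of 2 arrays are too small for a search for outlying arrays.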

How the results depend on the processing

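XBP1 at 1 value per gene fell and passed under each alternative that gave one, while its second probe set tested alone did not pass (-0.02, adjusted p = 0.945). With 1 array left out, where the lone array of its group is assumed to vary like the others, the average effect called 760 to 1437 genes with a shared sign, and the count called in both lines alone was 625 to 868. With the replicate block within each line, the average effect called 355 genes, all of them among the 1690. Whether the replicate numbers pair the arrays is not known. Each probe set on its own, a larger set of tests, gave 2956 calls, 1722 probe sets called in both lines alone and 8689 with a difference between the lines. The average of both lines in the group means fit, which leaves a difference between lines out of the error, called 5401 genes, of which 4140 shared a sign, and there ERN1, EIF2AK3, ATF4, DDIT3, EDEM1 and PDK1 passed as well. Lines fitted on their own 4 arrays called 646 genes in both. Of the 1690 genes, 65.4% were called with the mean over probe sets, where 37 had the other sign, among them SMC4 (-0.135) and PIK3C3 (-0.014), and 86.6% to 97.8% with the filters on dim genes, quantile normalization or moderation with trend. Of 77 called genes given in the text with full values, XBP1 and 42 others passed in every alternative in which they were tested, 14 for ADRB1, FLRT3 and XK. Of 391 list medians under alternatives, 10 moved by more than the median SD of replicates (0.123). Genes near or below the median level of 5.96 have compressed folds, and 1650 of the 1690 lay above it in a group.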

Other observations

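Genes for zinc finger proteins whose symbol is ZNF and a number rose more often than genes in general. Of 425 measured, 45 rose (10.6%, against 5.17% of all genes) and 3 fell (0.706%, against 3.38%). Their median change was 0.12, with 0.28 in T47D and -0.01 in MDA-MB-231, and 164 were higher in both lines while 49 were lower in both. RNAs with a symbol ending in -AS and a number, most of them antisense to a named gene, had 18 of 781 that rose (2.3%) and 9 that fell (1.15%), with a median of 0.01. Both groups were chosen after their values were seen and were given no test.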
